A study of Saccharomyces cerevisiae with 3 samples.

Results

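The 10 genes described here, AGP1, GNP1, BAP2, BAP3, TAT1, TAT2, DIP5, GAP1, HIP1 and CAN1, encode amino acid permeases of the yeast plasma membrane. They were taken by name from 6002 nuclear protein-coding genes, and every listed DNase I hypersensitive site from 1000 bp upstream of the start codon to the stop codon was collected in each strain. DNase-seq reads DNA ends made by DNase I in isolated nuclei, so a stretch with many cuts, a hypersensitive site, marks open chromatin. The series holds 3 libraries from Saccharomyces cerevisiae BY4741, a haploid MATa strain: the wild type parent, an isolate deleted for SBA1 (sba1-/- in the labels, here sba1Δ) and an isolate deleted for GCN5 (gcn5-/-, here gcn5Δ). The product of SBA1 is p23, which works with the chaperone Hsp90, and that of GCN5 acetylates histones as part of SAGA. All cells grew in YPD, a rich medium, with 2% glucose. BY4741 lacks HIS3, LEU2, MET15 and URA3 and so depends on uptake of histidine, leucine, methionine and uracil. Each strain was 1 isolate and 1 library, so no difference between strains has a replicate check, and no test between strains or p-value is given.

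Yeast takes up amino acids through permeases of 1 related family, each of which spans the membrane many times and moves its substrates in together with protons. Several of these genes, AGP1, GNP1, BAP2, BAP3 and TAT1 among them, are transcribed when the sensor Ssy1 detects amino acids outside the cell and, with Ptr3 and Ssy5, releases the transcription factors Stp1 and Stp2. GAP1 is instead held down by good nitrogen sources through the GATA factors Gln3 and Gat1. A hypersensitive site marks accessible DNA and does not show whether the gene is transcribed.

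Across the genome the lists held 3260 sites in wild type, 2439 in sba1Δ and 3062 in gcn5Δ, with median widths of 247, 350 and 261 bp on nuclear chromosomes. Read depth is unknown. Width and the authors' score went together within each list (Spearman's rho 0.906 to 0.925 across sites, which share a library), so the score is given only as the authors' own value and as a percentile of its own list. Neither deleted gene gave a check on the labels: wild type listed no site in the coding sequence of SBA1 or GCN5, and the sba1Δ list covered 1.84% of SBA1, at its start. Positions are on the sacCer3 build, 1-based, with gene spans from the R64 annotation of the same assembly.

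The permease genes have long upstream regions. The distance to the next protein-coding gene upstream was 745 bp for the shortest, TAT2, and 2227 bp for the longest, HIP1, with a median of 960 bp against 455 bp over 5992 genes. Only 24.9% of genes had a gap of 745 bp or more. At TAT2, TAT1, BAP2, CAN1, GNP1 and DIP5 the gap is under 1000 bp, so the upstream window reaches into the next gene. Coding lengths lay between 1773 bp (CAN1) and 1992 bp (GNP1). The upstream neighbour was divergent, sharing the intergenic region, at 7 of the genes and tandem at BAP2, TAT1 and DIP5. BAP2 and TAT1 lie next to each other on chromosome II, and a wild-type and a gcn5Δ site between them belong to the windows of both.

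Most of the permease genes had open chromatin upstream in every strain. A site in the promoter window, the 500 bp upstream of the start codon, was listed for 7 of 10 genes in wild type, 8 in sba1Δ and 9 in gcn5Δ. Over all genes the shares were 43.2%, 38.7% and 43.9%. Among the 1493 genes with an upstream gap at least as long as that of TAT2, they were 50.6%, 46.0% and 53.8%, below the permease genes in each list. In the whole window, to 1000 bp upstream and through the coding sequence, 9, 9 and 10 of the genes had a site, against 58.7%, 52.7% and 58.7% of all genes. The windows held 12 distinct sites in wild type, 12 in sba1Δ and 15 in gcn5Δ, with median widths of 461, 881.5 and 622 bp.

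**Figure D1:**
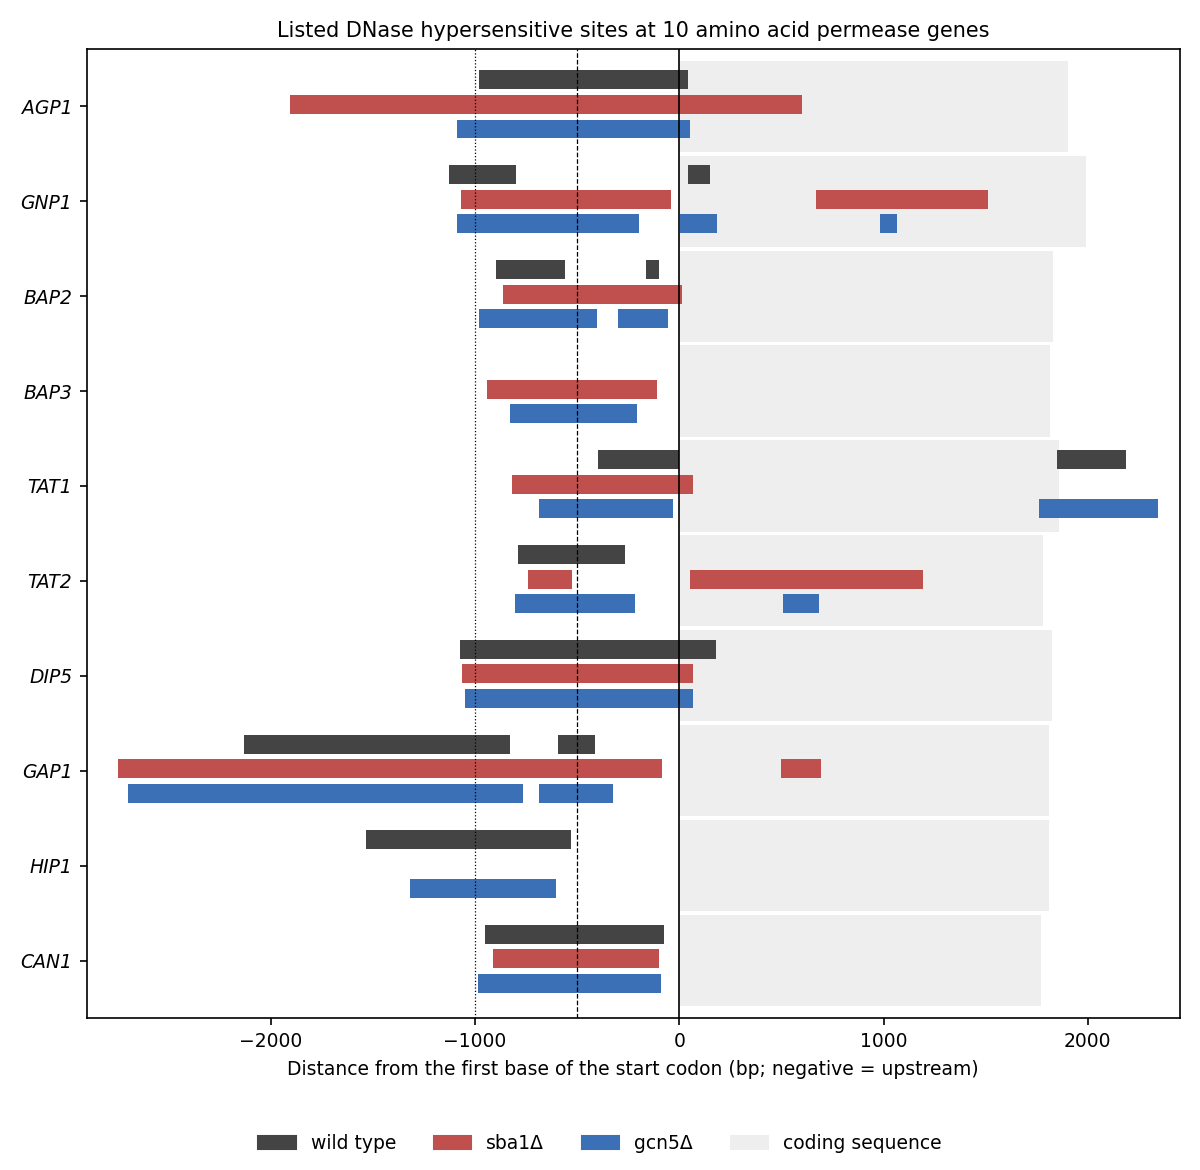
Listed sites at the 10 permease genes, drawn by distance from the first base of the start codon in bp, with upstream to the left, 1 row of bars per strain and the coding sequence in grey. The dashed and dotted lines lie 500 and 1000 bp upstream; most bars lie upstream, BAP3 has no wild-type bar, and long bars inside coding sequence are seen at AGP1, GNP1 and TAT2 in sba1Δ.

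Coverage of the permease genes was highest farther from the start codon than the mean over other genes was. In 100 bp bins, mean coverage of the 10 genes in wild type was highest 800 to 900 bp upstream, at 66.7%, where the mean over 3592 genes with at least 1000 bp of coding sequence was 15.0%. Over those 3592 genes the highest wild-type bin was 100 to 200 bp upstream, at 25.9%. They were not matched to the permease genes by upstream gap, whose median was 455 bp over all genes and 960 bp here. Whether the contrast in position follows gap length was not tested. In both deletion libraries the highest bin of the permease genes was 600 to 700 bp upstream, at 90.0% in sba1Δ and 96.8% in gcn5Δ. Just upstream of the start codon, in the last 100 bp, the strains stood at 32.4% in wild type, 47.4% in sba1Δ and 32.8% in gcn5Δ.

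**Figure D2:**
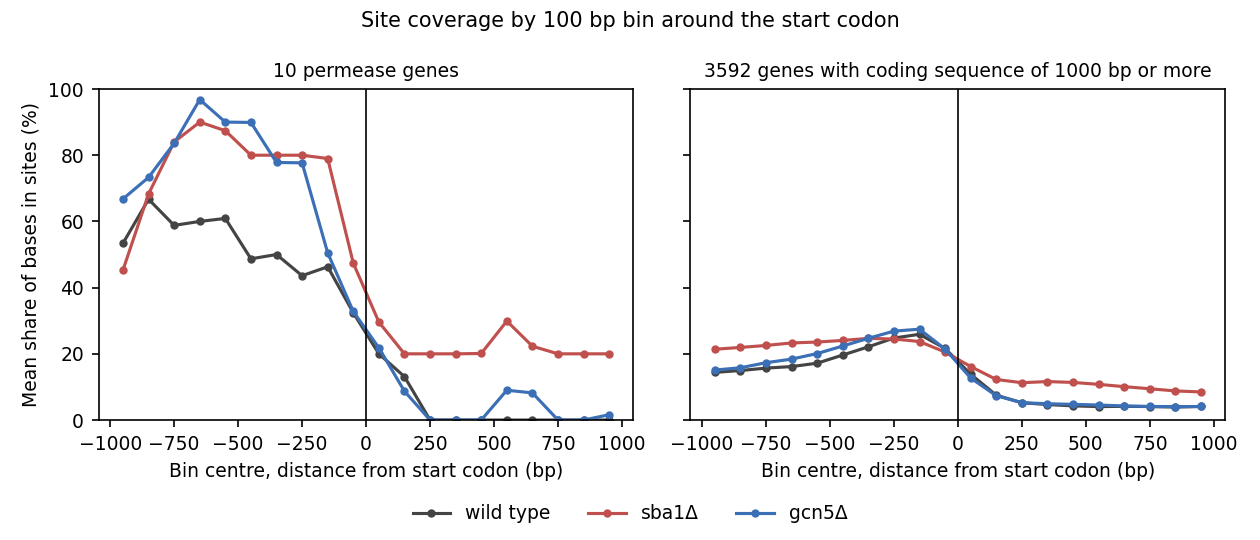
Mean share of bases in listed sites, in percent, by 100 bp bin around the start codon, for the 10 permease genes (left) and 3592 genes with at least 1000 bp of coding sequence (right), 1 line per strain. The permease lines are highest far upstream, at 66.7% to 96.8%, and the lines of the 3592 genes reach at most 27.4%. The 3592 genes were not matched by upstream gap.

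CAN1, the arginine permease (YEL063C, chromosome V, 31694 to 33466), had nearly the same site in all 3 strains. It ran from 33541 to 34418 in wild type, from 33568 to 34380 in sba1Δ and from 33555 to 34453 in gcn5Δ. These are widths of 878, 813 and 899 bp, and the near ends lay 75, 102 and 89 bp upstream of the start codon. The authors' scores were 5.12, 4.39 and 6.57, at percentile 95.4, 85.9 and 97.2 of their lists. CAN1 thus had 1 high-scored site of much the same extent in every list, with none of it in its own coding sequence. The site fills most of the region that CAN1 shares with NPR2, and it reached 12 bp into NPR2 in wild type and 47 bp in gcn5Δ.

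DIP5, the permease for glutamate and aspartate (YPL265W, chromosome XVI, 41043 to 42869), had the highest-scored site among the 10 genes in each list. The site spanned 39968 to 41220 in wild type, 39978 to 41111 in sba1Δ and 39996 to 41110 in gcn5Δ. Scores were 7.87, 8.91 and 6.84, at percentiles 97.9, 96.3 and 97.4. It covered the whole 1000 bp upstream in every strain and the start codon itself. Its end within the gene was farthest in wild type, where 9.74% of the coding sequence was covered, against 3.78% and 3.72%. At its other end it overlapped the last 82 to 110 bp of the rRNA methyltransferase gene DIM1.

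AGP1, a permease of broad specificity (YCL025C, chromosome III, 76018 to 77919), also had 1 site per strain over the start codon, but of very unequal length. Wild type listed 77879 to 78901, a width of 1023 bp, and gcn5Δ 77868 to 79005, a width of 1138 bp. In sba1Δ the site ran from 77321 to 79822 and was 2502 bp wide, at percentile 97.0 of the widths in that list. It reached 599 bp into AGP1, where wild type reached 41 bp and gcn5Δ 52 bp, and in the other direction it took in 661 bp of the kinase gene KCC4. Coverage of the 1000 bp upstream was near complete in each, at 98.2%, 100% and 100%, so the extra length in sba1Δ lay inside both genes and in the region next to KCC4.

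BAP3, a permease for branched-chain and other amino acids (YDR046C, chromosome IV, 548762 to 550576), had no site in wild type, and the nearest upstream site there began 6073 bp from its start codon. The sba1Δ list held 550686 to 551515, 830 bp wide with a score of 3.23, at percentile 77.7. The gcn5Δ list held 550785 to 551406, 622 bp wide with a score of 2.70, at percentile 75.5. The gcn5Δ site lay wholly within that of sba1Δ, and both lay in the region between BAP3 and the divergent HEM12, which acts in heme synthesis. Their midpoints lay 524 bp (sba1Δ) and 519 bp (gcn5Δ) upstream of BAP3. BAP3 was the only permease gene here without a wild-type site in the whole window.

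GNP1, the high-affinity glutamine permease (YDR508C, chromosome IV, 1466453 to 1468444), had only low-scored sites in wild type, of 112 and 328 bp. They lay at 1468292 to 1468403 inside the coding sequence, with a score at percentile 18.6, and at 1469245 to 1469572, with a score at percentile 31.6, partly inside SMT3, the SUMO gene on the other side. The sba1Δ list held 1468486 to 1469511 upstream, 1026 bp wide with a score of 3.63, and 1466932 to 1467773 within the gene, 842 bp wide with a score of 2.93. The gcn5Δ list held an upstream site of 891 bp at 1468640 to 1469530 with a score of 2.68, and sites of 185 and 84 bp within the gene. The upstream sites of both deletion libraries covered the whole 500 bp upstream of SMT3. Of the 1000 bp upstream of GNP1, 20.0% was covered in wild type, 95.9% in sba1Δ and 80.5% in gcn5Δ.

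BAP2, a permease for leucine, isoleucine and valine (YBR068C, chromosome II, 373861 to 375690), had separate sites in wild type, at 375792 to 375854 and 376248 to 376586. The first was 63 bp wide and scored at percentile 6.5 of its list, the narrowest site in any of these windows. In sba1Δ a single site from 375677 to 376553, 877 bp wide with a score of 3.55, overlapped both and reached 14 bp into the gene. The gcn5Δ list kept separate sites, at 375746 to 375991 and 376092 to 376671, of 246 and 580 bp. Upstream coverage was 40.2% in wild type, 86.3% in sba1Δ and 82.6% in gcn5Δ.

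TAT1, which carries tyrosine and branched-chain amino acids (YBR069C, chromosome II, 376574 to 378433), had a promoter site in each strain. It ran from 378436 to 378833 in wild type, from 378368 to 379253 in sba1Δ and from 378463 to 379117 in gcn5Δ. The widths were 398, 886 and 655 bp and the scores 2.75, 3.98 and 2.98. In sba1Δ the site reached 66 bp into TAT1 and 33 bp into the end of ALG14, so it spanned the whole intergenic region. Upstream coverage was 39.8%, 82.0% and 65.5%. TBRT, an antisense RNA annotated from 376610 to 378633, overlaps most of TAT1 and part of this site, and a DNase site has no strand, so it cannot be given to either transcript.

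GAP1, the general amino acid permease (YKR039W, chromosome XI, 515063 to 516871), lay next to the longest open stretch of the 10 genes. Wild type listed 512932 to 514233, 1302 bp wide, which also covers the 500 bp upstream of the divergent KAE1, and a small site of 181 bp at 514469 to 514649, between 414 and 594 bp upstream of GAP1. The gcn5Δ list held the same arrangement with larger sites, 1932 bp at 512367 to 514298 and 363 bp at 514377 to 514739. In sba1Δ 1 site of 2662 bp, from 512316 to 514977, took the place of both and came to 86 bp from the start codon. This site covered 72.7% of the coding sequence of KAE1, against 19.6% in wild type and 68.3% in gcn5Δ. Of the 1000 bp upstream of GAP1, 35.2%, 91.5% and 59.9% was covered in wild type, sba1Δ and gcn5Δ. The sba1Δ list also held a site of 195 bp inside GAP1, from 515562 to 515756, with a score at percentile 23.8.

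TAT2, the high-affinity tryptophan permease (YOL020W, chromosome XV, 286172 to 287950), was covered mainly inside the gene in sba1Δ. Wild type listed 285384 to 285907, 524 bp wide, and gcn5Δ 285369 to 285956, 588 bp wide, both in the region shared with the exosome gene DIS3 and nearer to DIS3. The sba1Δ list kept 214 bp of it, 285432 to 285645, which ended 527 bp from the start codon and so outside the promoter window. It listed instead a site of 1142 bp inside the gene, from 286225 to 287366, with a score of 3.75 at percentile 83.4. That site covered 64.2% of the TAT2 coding sequence, where wild type had 0% and gcn5Δ 9.67%, from a site of 172 bp that lay within the same stretch.

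HIP1, the high-affinity histidine permease (YGR191W, chromosome VII, 880420 to 882231), had no site in the promoter window in any strain. Its upstream site was distant, at 878887 to 879891 in wild type, 529 to 1533 bp from the start codon, and at 879103 to 879817 in gcn5Δ. Their widths were 1005 and 715 bp. In sba1Δ a site of 234 bp remained at 879185 to 879418, which began 1002 bp from the start codon and therefore fell just outside the 1000 bp window. HIP1 is counted as having no site in that strain for this reason. Its coding sequence held no site in any list.

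Read together by coverage of the 1000 bp upstream, the permease genes stood above the genome in every strain and highest in the deletion libraries. Mean upstream coverage of the 10 genes was 52.1% in wild type, 74.1% in sba1Δ and 73.9% in gcn5Δ, with medians of 43.7%, 84.7% and 73.0%. Over all genes the means were 19.1%, 23.6% and 20.8%. Those genes were not matched by upstream gap, and 24.9% had one as long as the shortest here. Coverage was at least 10 percentage points higher than in wild type for 5 of 10 permease genes in sba1Δ, where 23.2% of all genes were, and for 5 of 10 in gcn5Δ, where 14.2% of all genes were. Of the 1493 genes with long upstream gaps, 24.4% and 21.2% were. Every site was also set to 250 bp about its midpoint, which widens shorter sites and narrows longer ones. Coverage then follows the number and midpoints of sites, not their width. BAP3 was the 1 gene still at least 10 points higher in either deletion. The mean difference of sba1Δ from wild type was -2.77 points in place of 22.1.

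The differences in upstream coverage, deletion minus wild type, are given here for each gene side by side. Both deletions share 1 wild-type list as their reference, and a site missing from it counts in both. BAP3 was 83.0 points higher in sba1Δ and 62.2 in gcn5Δ, GNP1 75.9 and 60.5, and GAP1 56.3 and 24.7. BAP2 was 46.1 and 42.4 points higher and TAT1 42.2 and 25.7. With all sites at 250 bp the direction turned in sba1Δ for BAP2, from 50% in wild type to 25%, and for GAP1, from 25% to 0%. At BAP2 a single long sba1Δ site overlaps both wild-type sites and so counts for less at that width. At GAP1 the midpoint of the long sba1Δ site lay 1417 bp upstream, outside the window. TAT1, with 1 upstream site in each list, stood at 25% in all 3 strains. In gcn5Δ, 0.317% of all genes had a difference as high as that of BAP3 and 0.400% one as high as that of GNP1, while in sba1Δ these shares were 1.68% and 2.65%. AGP1 was 1.80 points higher in each and DIP5 was at 100% throughout. TAT2 fell by 31.0 points in sba1Δ and was 6.40 higher in gcn5Δ. HIP1 fell by 47.2 points in sba1Δ and fell by 7.40 in gcn5Δ, and CAN1 fell by 6.50 points in sba1Δ and was 2.10 higher in gcn5Δ. At 250 bp per site TAT2 and CAN1 were at 25% in every strain, a value that the fixed width sets where each list holds 1 upstream site. HIP1 was then at 9.4% in wild type, 0.6% in sba1Δ and 16.5% in gcn5Δ, so its direction turned in gcn5Δ. At least 10 points lower were 2 of 10 permease genes in sba1Δ, beside 21.6% of all genes, and 0 of 10 in gcn5Δ, beside 9.10%. Those 2 were TAT2 and HIP1, and with sites at 250 bp they were BAP2 and GAP1 instead, through the long sba1Δ sites named above.

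**Figure D3:**
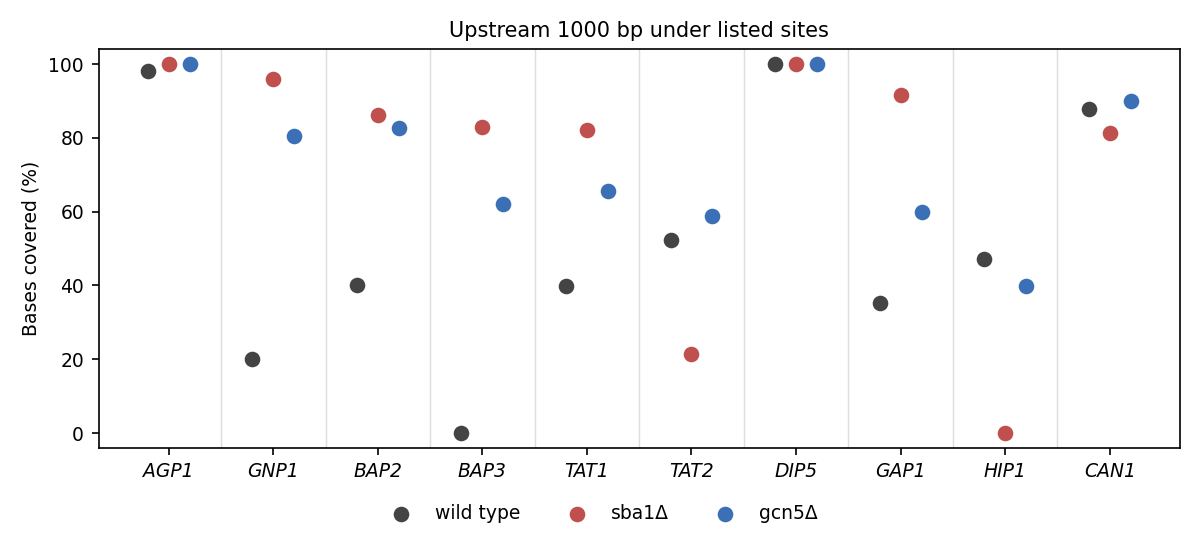
Share of the 1000 bp upstream of each permease gene that lay in listed sites, in percent, 1 point per strain. GNP1, BAP2, BAP3, TAT1 and GAP1 have both deletion points above the wild-type point; AGP1, DIP5 and CAN1 lie between 81.3% and 100% in all 3 lists; TAT2 and HIP1 are lowest in sba1Δ.

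By promoter site alone the changes were few. In sba1Δ 2 of the 3 genes without a wild-type promoter site had one, GNP1 and BAP3, where 19.7% of all such genes did. In gcn5Δ it was also GNP1 and BAP3, beside 11.9% of all such genes. TAT2 was the only gene of 7 to lose its promoter site in sba1Δ, beside 36.5% of all genes with one, and 0 of 7 lost it in gcn5Δ, beside 14.0%. At AGP1, BAP2, TAT1, DIP5, GAP1 and CAN1 a promoter site was listed in all 3 strains. Some of these calls ended under other settings. With all sites at 250 bp, GNP1 had a promoter site in wild type too, because its 112 bp site inside the coding sequence was widened past the start codon. AGP1 and GAP1 then had none in sba1Δ, where the midpoints of their long sites lay 652 and 1417 bp upstream. With the better-scored 50% of each list, BAP2 and GAP1 had none in wild type.

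The coding sequences of the permease genes held few sites in wild type and more in sba1Δ. Mean coding coverage of the 10 genes was 1.82% in wild type, 15.7% in sba1Δ and 3.49% in gcn5Δ, against 8.08%, 13.7% and 8.24% over all genes. The mean in sba1Δ rests on a few genes: the median was 3.66%. TAT2 with 64.2%, GNP1 with 42.3%, AGP1 with 31.5% and GAP1 with 10.8% were each at least 10 points above wild type, 4 of 10 genes, beside 17.3% of all genes. In wild type those genes had 0%, 5.62%, 2.16% and 0% of their coding sequence covered. Differences as high as that of TAT2 were found for 4.42% of all genes and as high as that of AGP1 for 10.7%.

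In gcn5Δ 0 of 10 genes were at least 10 points above wild type, beside 5.01% of all genes. The highest there were GNP1 with 13.5%, TAT2 with 9.67% and TAT1 with 5.27%. No permease gene was at least 10 points lower in either deletion, beside 8.05% of all genes in sba1Δ and 4.70% in gcn5Δ. DIP5 alone had less coding sequence covered than in wild type, in both deletions. BAP3, HIP1 and CAN1 had 0% in every strain. TAT2 in sba1Δ was the single case of at least 50% coverage, a level that 5.46%, 12.0% and 6.05% of all genes reached in the 3 lists. With every site set to 250 bp, TAT2 came to 14.1% in sba1Δ and 14.1% in gcn5Δ, values that the fixed width makes equal wherever each list holds 1 site inside the gene. With the better-scored 50% of each list, TAT2 stayed at 64.2% in sba1Δ and stood at 0% in gcn5Δ. With sites at 250 bp, 2 genes in each deletion were at least 10 points above wild type, TAT2 and GAP1 in sba1Δ and TAT2 and GNP1 in gcn5Δ.

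**Figure D4:**
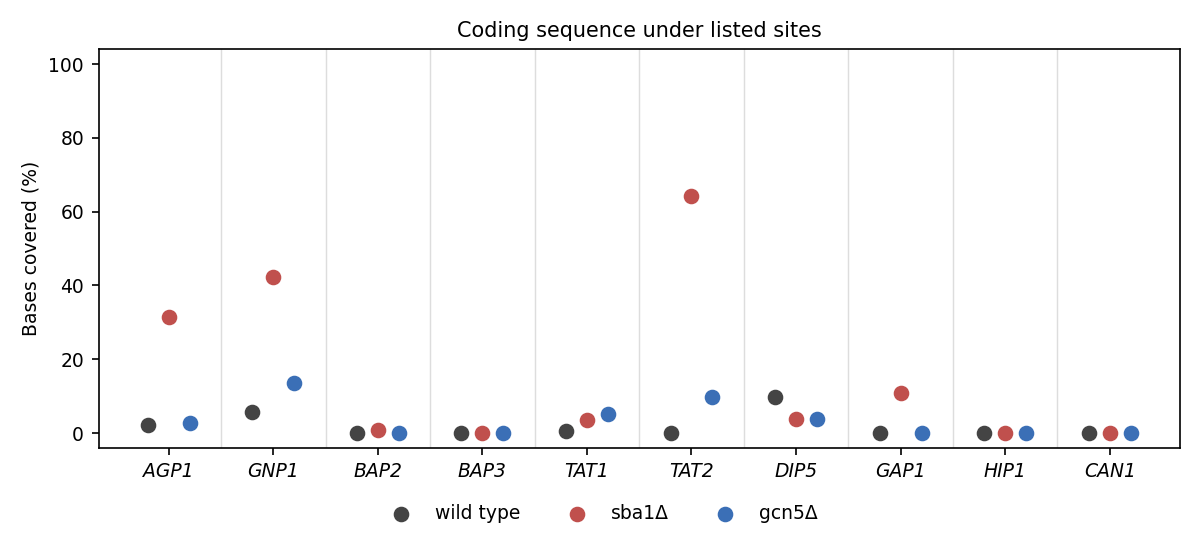
Share of each permease coding sequence that lay in listed sites, in percent, 1 point per strain. In sba1Δ TAT2, GNP1 and AGP1 stand at 64.2%, 42.3% and 31.5%; all wild-type points lie at or below 9.74%.

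The start codon itself was covered at AGP1 and DIP5 in all 3 strains. BAP2 and TAT1 joined them in sba1Δ only, which made 4 of 10 genes, beside 21.2% of all genes. In wild type and gcn5Δ it was 2 of 10, beside 19.5% and 18.7%, a share close to the background.

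Base by base, the permease windows held more of the wild-type open chromatin in the deletion strains than windows of all genes did. Of 5539 bp covered in wild type over the 10 windows, 80.1% was covered in sba1Δ and 95.9% in gcn5Δ, against 62.5% and 81.0% over all gene windows. The sba1Δ list covered 10341 bp and gcn5Δ 7953 bp. Of the 10341 bp, 42.9% lay in wild-type sites, and of the 7953 bp 66.8% did. Between the deletion libraries 6792 bp were covered in both, 65.7% of sba1Δ bases and 85.4% of gcn5Δ bases, against 55.1% and 71.7% over all gene windows. At AGP1, BAP3, DIP5 and GAP1 all bases of gcn5Δ sites within the window were also covered in sba1Δ.

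Where a wild-type site matched just 1 site of the other list, widths could be compared directly. Of 11 such matches with gcn5Δ, 9 were wider there, with a median ratio of 1.65, whereas over 2267 matches in the genome 44.6% were wider and the median ratio was 0.973. The gcn5Δ site was wider at BAP2, TAT1, AGP1, GNP1, CAN1, GAP1 and TAT2 and narrower at HIP1 and DIP5. Ratios were 3.90 and 1.71 at BAP2, 2.72 and 1.65 at GNP1, 2.01 at GAP1 and 1.65 at TAT1. They were 1.12 at TAT2, 1.11 at AGP1, 1.02 at CAN1, 0.890 at DIP5 and 0.711 at HIP1. The ratio of 3.90 belongs to a wild-type site of 63 bp. With sba1Δ there were 7 such matches and 3 were wider. Those were AGP1, TAT1 and GNP1, with ratios of 2.45, 2.23 and 3.13. The others were CAN1 with 0.926, DIP5 with 0.905, TAT2 with 0.408 and HIP1 with 0.233. In the genome 43.4% of 1303 matches were wider in sba1Δ, with a median ratio of 0.903. The wild-type sites at BAP2 and GAP1 had no such match in that strain because a single site spanned both.

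Other genes of the same permease family were counted in the same way and had less of their upstream regions covered on average. A promoter site was listed for 4 of 8 such genes in wild type, 5 in sba1Δ and 4 in gcn5Δ, beside 43.2%, 38.7% and 43.9% of all genes. With 8 genes, these counts lie near the share over all genes. Mean upstream coverage was 22.3%, 31.2% and 23.6%. Upstream gaps were 37 bp at ALP1, 342 at MMP1, 361 at AGP2, 380 at SSY1 and 455 at LYP1. These gaps are shorter than the 745 bp of TAT2, so more of their 1000 bp windows lay beyond the gap. AGP3, PUT4 and SAM3 had longer gaps, of 3052, 1006 and 6069 bp. Whether the lower mean upstream coverage follows gap length was not tested. PUT4, the proline permease, lay under a site for nearly its whole length in all strains: its site was 2965 bp wide in wild type, 3699 bp in sba1Δ and 3535 bp in gcn5Δ, and covered 92.4%, 100% and 100% of the coding sequence. It was among the highest-scored sites of each list, at percentile 99.9, 99.8 and 99.9. ALP1 and LYP1, genes for basic amino acid permeases on either side of BSC4, had no site in their windows in wild type or in gcn5Δ. In sba1Δ ALP1 had a site of 769 bp over its start codon, which covered 40.0% of its coding sequence. That site also covered 19.2% of the 1000 bp upstream of LYP1, and LYP1 had another of 211 bp within the gene. AGP3 and the sensor gene SSY1 had no site in their windows in any list.

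**Figure D5:**
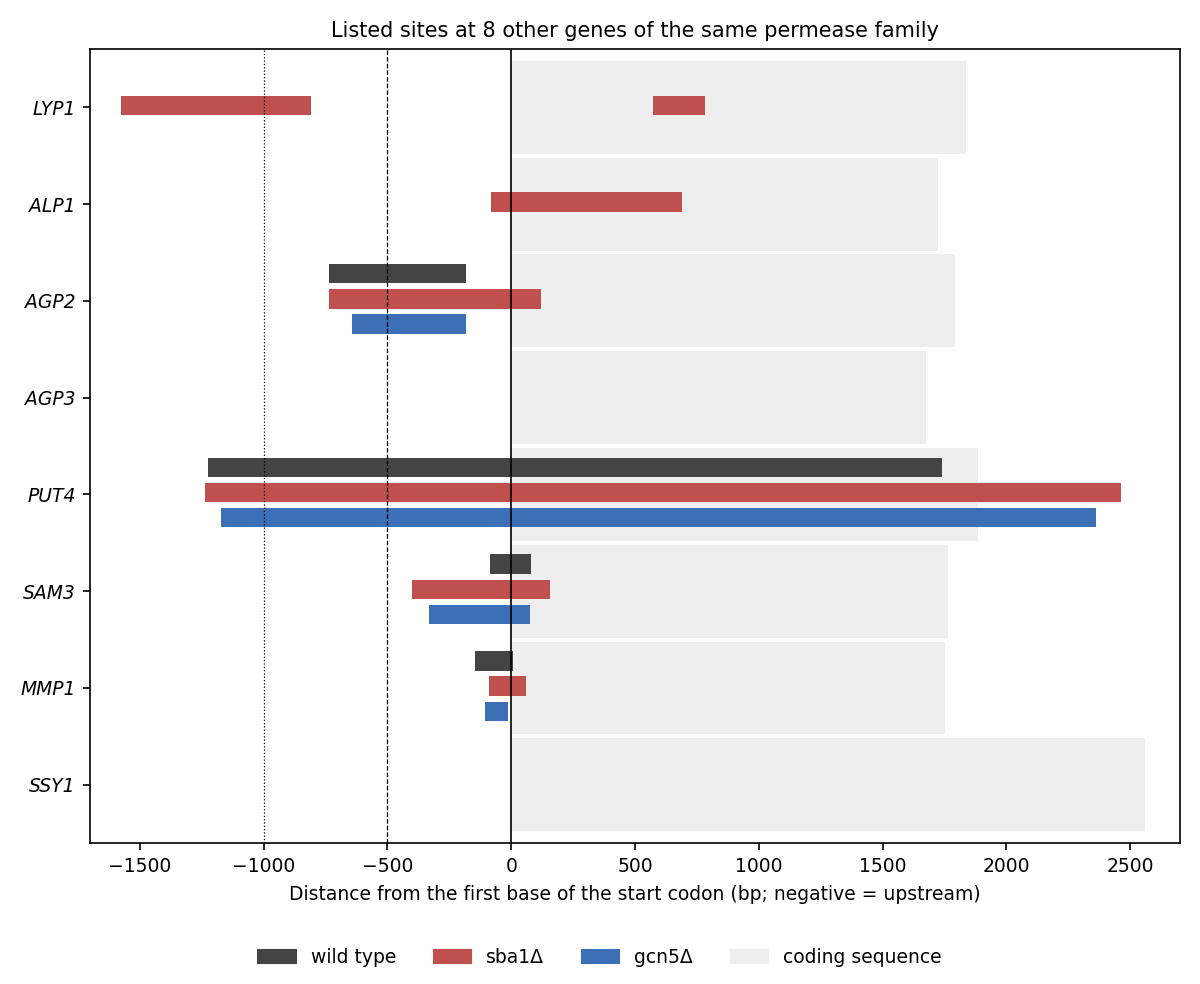
Listed sites at 8 other genes of the permease family, drawn as distance from the first base of the start codon in bp, 1 row of bars per strain, coding sequence in grey. PUT4 is covered over 92.4% to 100% of its coding sequence in every list, ALP1 and LYP1 have bars in sba1Δ only, and AGP3 and SSY1 have none.

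Genes that regulate, sort or complement the permeases were counted in the same way. For 10 genes of the amino acid sensor pathway, a promoter site was listed at 3 in wild type, 2 in sba1Δ and 3 in gcn5Δ, where all genes had 43.2%, 38.7% and 43.9%. Gains and losses were also common in the genome: of genes without a wild-type promoter site 19.7% gained one in sba1Δ and 11.9% in gcn5Δ, and of genes with one 36.5% and 14.0% lost it. In sba1Δ STP1, one of the transcription factors of the pathway, gained one, with upstream coverage of 94.0% against 21.1% in wild type, while ASI1 and ASI2, which hold the pathway off at the inner nuclear membrane, lost theirs. ASI2 lost it in gcn5Δ too, where SSY5, the protease of the pathway, gained one. PTR3, a subunit of the sensor, had 5.55% of its coding sequence covered in wild type, 39.7% in sba1Δ and 19.9% in gcn5Δ. STP2 had no promoter site in any strain.

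Among 5 regulators of nitrogen catabolite genes, 3 had coding coverage at least 10 points higher in sba1Δ, beside 17.3% of all genes, and 0 did in gcn5Δ, beside 5.01%, so the count of 0 among 5 genes does not set the list apart. GAT1 went from 53.0% in wild type to 94.9% in sba1Δ and stood at 54.3% in gcn5Δ. DAL80, a repressor, and GLN3, an activator, had 0% in wild type and in gcn5Δ, 28.3% and 20.3% in sba1Δ, and gained a promoter site there. GZF3 lost its promoter site in sba1Δ. Of 4 other transporters, UGA4, for GABA, gained a promoter site in sba1Δ, with 83.2% of its upstream region covered against 0%. PTR2, for di- and tripeptides, had 3.16%, 28.5% and 6.59% of its coding sequence covered, and an upstream region covered in full in each strain.

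Of 7 genes for trafficking and turnover of permeases, 1 carried a promoter site in wild type and in gcn5Δ and 2 had one in sba1Δ. The shares over all genes were 43.2%, 43.9% and 38.7%, and counts among 7 genes do not set the list apart. BUL1, an adaptor of the ubiquitin ligase Rsp5, had 7.16% of its coding sequence covered in wild type, 28.8% in sba1Δ and 11.7% in gcn5Δ. BUL2 gained a promoter site in sba1Δ. SHR3, which chaperones permeases in the endoplasmic reticulum, and NPR1, a kinase that stabilises them, had no site in the window in any strain. Of 5 other regulators, LEU3, which controls branched-chain amino acid genes, gained a promoter site in both deletions, with upstream coverage of 0% in wild type, 74.7% in sba1Δ and 12.1% in gcn5Δ. CYC8 and TUP1, which form a general co-repressor, had coding coverage 18.5 and 12.7 points higher in sba1Δ, a step of at least 10 points that 17.3% of all genes made.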

How the data were processed

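DNase-seq site lists of 3 strains, 1 library each, were used. The submitters' processing notes name Bowtie 0.12.7 and sacCer3. Not given in the sources used here: the site caller, its threshold, the DNase I level sequenced, and the treatment of reads that fit several places, which matters for related permease genes. Each list that the authors deposited gives position, name and a score of unstated scale. Read depth is unknown, so no interval or limit of detection is given.

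Groups follow the genotype in the labels. Positions were made 1-based and joined to 6002 nuclear protein-coding genes of R64, with strand read from systematic names. All 49 listed names (48 genes) matched. Coverage is the share of bases under any site, and a site counted with an overlap of at least 1 bp. Calls use steps of 10 percentage points and a level of 50%, and counts of genes called are given with the share over all genes. No test was run, since each strain has 1 library. The code was tested on simulated data. Promoter motifs were planned and are not analysed here, as no sequence was used.

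The members and lists were chosen with earlier results of these data known. Upstream coverage, the bins, the start codon count, matched site widths and the long-gap set were chosen after seeing the data. All members are named. Of the other lists, genes with a gained or lost promoter site or coding coverage that differed by 10 points are named, up to 4 per list, beside genes named as background, for having no site, or after their values were seen (SSY5, PUT4). Alternatives covered better-scored and equal-sized lists, merging, fixed widths, overlap and windows. Python 3.11.15, numpy 2.4.6, pandas 2.3.3 and matplotlib 3.10.9 were used.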

Additional observations from a re-analysis of the deposited data

Results flagged for a closer look

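Upstream coverage of TAT2 and of CAN1 was flagged because the deletion strains lay on opposite sides of wild type. The share of all genes with such opposite signs was not counted. For TAT2 it fell by 31.0 percentage points in sba1Δ and was 6.40 points higher in gcn5Δ. For CAN1 it fell by 6.50 points and was 2.10 points higher. With every site set to 250 bp both genes were at 25% in all 3 strains. Each list holds 1 site upstream of each gene, so the fixed width makes these values equal. That setting therefore cannot show a difference in width. With 1 library per strain these differences were not tested.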

How the results depend on the processing

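Each of 30 values was recomputed under up to 7 settings, 138 recomputed values in all. Of these, 120 stayed within 1.5 times the reported value, 16 moved by more and 2 differences from wild type reversed. Only such a difference could reverse, so these labels do not show whether the order of the strains held. Most of the values that moved or reversed came from setting every site to 250 bp. This setting widens shorter sites and takes no account of length. Promoter sites were then listed for 8, 6 and 9 genes in wild type, sba1Δ and gcn5Δ, in place of 7, 8 and 9. Mean upstream coverage was then 22.8% in wild type, 20.1% in sba1Δ and 27.0% in gcn5Δ, a difference of -2.77 points (reversed) and 4.12 points. Mean coding coverage was 1.12% in wild type and 4.04% in sba1Δ, with differences of 2.92 points in sba1Δ and 2.65 in gcn5Δ. At that width 0 genes were at least 50% covered in sba1Δ, 2 genes in each deletion were at least 10 points higher in coding coverage, and 1 gene in each was in upstream coverage. The 2 genes at least 10 points lower upstream in sba1Δ were then BAP2 and GAP1 in place of TAT2 and HIP1. At both, a single long sba1Δ site overlapped the wild-type sites, and its length is not counted at that width. With the better-scored 50% of each list, mean coding coverage was 1.19% in wild type and 1.17% in gcn5Δ, a difference of -0.0174 points that reversed its sign, and wild type had 7 sites over the windows in place of 13. With equal numbers of best-scored sites, 2439 per list, promoter sites were listed for 6, 8 and 9 genes in wild type, sba1Δ and gcn5Δ. When only sites nearest to the permease start codon were counted, 7, 7 and 9 genes had one. Unknown depth limits how far an unlisted site can be read as closed chromatin. No paired analysis was possible because each strain has 1 library and the result comes from no test.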
